A study of Homo sapiens with 9 samples.

Results

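The genes described here are 36 genes of the ATF4 and amino acid stress response, measured in OVISE cells after ARID1A restoration or EZH2 inhibition. Members are the genes of a named list whose array probes were detected (detection p below 0.05) on at least 3 of 9 arrays, each gene represented by its brightest detected probe. All 36 had a probe on the array, and 32 were kept, each detected on 9 of 9 arrays, among 12698 genes kept in all. The 4 genes left out are named with their roles below.

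OVISE is an established clear cell ovarian cancer line with mutated ARID1A, which encodes a component of the SWI/SNF complexes that remodel nucleosomes. All cells were grown in 3 dimensions in Matrigel, and 3 arrays were made for each of 3 conditions, with 1 array of each condition in each of batches 1, 2 and 3. The DMSO group received the vehicle, the ARID1A group received 1 µg/mL doxycycline, which switches on wild-type ARID1A, and the GSK126 group received 5 µM GSK126, an inhibitor of the histone methyltransferase EZH2. Doxycycline was named for the ARID1A group alone, so that an effect of the drug and an effect of ARID1A cannot be told apart. The labels used here give neither the promoter nor the number of clones behind the inducible line, nor whether the DMSO and GSK126 cells carried it, and they do not say whether the 3 samples of a group were separate cultures. The p-values rest only on how far these samples spread, and that spread could be technical.

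ATF4 is a transcription factor of the integrated stress response. When amino acids run short, or the endoplasmic reticulum or mitochondria are stressed, kinases phosphorylate the translation factor eIF2; general protein synthesis falls while the ATF4 messenger RNA is translated more, so that ATF4 activity is set largely after transcription and its own RNA level is an incomplete guide to it. ATF4 pairs with C/EBP proteins on C/EBP-ATF response elements and switches on genes for amino acid synthesis and uptake, transfer RNA charging and, in prolonged stress, the regulators DDIT3 and TRIB3. In many tumours this programme supplies serine, glycine, asparagine and folate-bound carbon units for growth.

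The letters of a C/EBP-ATF response element, TGATGNAA, were looked for on both strands of the 300-base promoter windows that RefSeq's start sites give on GRCh38.p14 (250 bases before the start and 50 from it). Windows were held for 30 of the 36 members, and 9 of these (30%) held the letters in at least 1 window, beside 1217 of 27305 genes in the table (4.46%). The 9 members were CEBPG, ASNS, CHAC1, SLC3A2, SLC7A1, SLC1A5, SLC1A4, AARS1 and GARS1. The list was made of genes of the ATF4 response, so its higher share is not separate evidence. Genes also differ in their number of windows, which these shares do not allow for. The 6 sequences below show 3 members with the letters (ASNS, CEBPG and AARS1) and the 3 members that passed a test in these data (PCK2, MTHFD2 and TRIB3), whose windows do not hold them. They run 5′ to 3′ on the gene's strand, and capitals mark the motif, which reads in reverse complement, TTNCATCA, in AARS1. Counting the first transcribed base as 1 and the base before it as −1, the motif begins at −68 in ASNS, −42 in CEBPG and −187 in AARS1.
ASNS (chr7:97872359-97872658, - strand): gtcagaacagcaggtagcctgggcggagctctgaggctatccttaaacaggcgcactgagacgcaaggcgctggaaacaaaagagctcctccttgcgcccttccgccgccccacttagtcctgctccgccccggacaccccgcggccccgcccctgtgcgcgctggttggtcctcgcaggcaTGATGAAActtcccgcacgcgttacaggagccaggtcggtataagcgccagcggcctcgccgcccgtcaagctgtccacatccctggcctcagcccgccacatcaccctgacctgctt
CEBPG (chr19:33373863-33374162, + strand): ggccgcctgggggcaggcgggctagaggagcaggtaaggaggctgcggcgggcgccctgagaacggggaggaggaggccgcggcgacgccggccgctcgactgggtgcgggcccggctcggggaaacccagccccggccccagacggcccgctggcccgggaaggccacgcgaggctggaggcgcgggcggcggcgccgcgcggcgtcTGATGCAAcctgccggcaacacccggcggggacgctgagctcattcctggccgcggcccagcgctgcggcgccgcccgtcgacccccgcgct
AARS1 (chr16:70289457-70289756, - strand): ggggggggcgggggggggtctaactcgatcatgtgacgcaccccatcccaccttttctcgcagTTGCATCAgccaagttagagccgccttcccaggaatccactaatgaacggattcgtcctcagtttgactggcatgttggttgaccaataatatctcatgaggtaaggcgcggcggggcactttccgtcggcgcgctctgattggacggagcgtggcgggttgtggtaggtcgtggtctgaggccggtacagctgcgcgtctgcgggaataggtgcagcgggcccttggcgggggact
PCK2 (chr14:24094061-24094360, + strand): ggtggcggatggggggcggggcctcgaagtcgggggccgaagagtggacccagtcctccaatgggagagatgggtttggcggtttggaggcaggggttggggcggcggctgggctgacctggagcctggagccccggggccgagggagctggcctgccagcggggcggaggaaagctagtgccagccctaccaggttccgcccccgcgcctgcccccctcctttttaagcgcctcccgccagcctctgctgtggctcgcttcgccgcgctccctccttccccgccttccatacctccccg
MTHFD2 (chr2:74198365-74198664, + strand): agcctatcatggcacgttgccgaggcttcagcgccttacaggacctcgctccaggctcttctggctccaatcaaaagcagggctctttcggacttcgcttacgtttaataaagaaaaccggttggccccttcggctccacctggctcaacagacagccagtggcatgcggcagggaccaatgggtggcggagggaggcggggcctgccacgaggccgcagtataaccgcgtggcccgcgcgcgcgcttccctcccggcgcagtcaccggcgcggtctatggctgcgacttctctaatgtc
TRIB3 (chr20:381045-381344, + strand): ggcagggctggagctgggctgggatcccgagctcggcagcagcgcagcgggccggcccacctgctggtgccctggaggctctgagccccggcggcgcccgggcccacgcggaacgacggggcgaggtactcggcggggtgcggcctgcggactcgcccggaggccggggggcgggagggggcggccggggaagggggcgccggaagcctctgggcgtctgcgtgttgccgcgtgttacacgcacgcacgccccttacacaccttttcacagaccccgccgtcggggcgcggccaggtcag
Only 1 of several start sites is shown for ASNS, CEBPG and TRIB3. A match describes letters and not a bound site, and a window without one says nothing of ATF4 binding elsewhere.

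The 9 arrays were close to each other in quality: between 21317 and 22517 of 47323 probes were detected on each, and log2 raw values of arrays of the same group correlated at 0.994 to 0.995 over probes. ARID1A itself checked the label of the ARID1A group, and it cannot tell DMSO from GSK126 arrays. Its probe ILMN_1734496 was detected on 3 of 3 ARID1A arrays (8.57, 8.34 and 9.09) and on 0 of the 6 other arrays. That probe was kept by the detection filter through the ARID1A arrays alone. It was at least 3.74-fold higher than DMSO (limma adjusted p = 0.000319 over all kept probes). The other ARID1A probe, ILMN_1797341, averaged 11.07 on the DMSO arrays and 10.94 on the ARID1A arrays. Of 7 epithelial and clear cell markers with a probe, 6 were detected on all 9 arrays (PAX8, NAPSA, EPCAM, KRT8, KRT7 and CDH1) and KRT18 on none. The log2 of their summed intensity was 17.38 to 17.42 in DMSO, 17.56 to 17.67 in ARID1A and 17.31 to 17.34 in GSK126, so it was higher on each ARID1A array than on any other. Of the leukocyte markers, CD68 was detected on 9 arrays (group means 11.42 to 11.55), CD14 on 8, LYZ on 7, and PTPRC and CD3E on 0. Of the fibroblast markers, DCN was detected on 2 arrays, COL1A1 on 1, and COL1A2, COL3A1, LUM and PDGFRB on 0. PECAM1, CDH5, KDR and TEK of endothelium were detected on 0 arrays. Summed log2 intensity ran from 11.54 to 11.80 over the 9 arrays for 5 leukocyte markers and from 8.69 to 8.92 for 6 fibroblast markers. For the 5 endothelial markers it was 8.24 to 8.45 in DMSO, 8.68 to 8.73 in ARID1A and 8.25 to 8.33 in GSK126, and VWF alone among them was detected, on the 3 ARID1A arrays. Of 6 epithelial and clear cell markers tested, KRT8 passed an adjusted p of 0.05 for ARID1A against DMSO. Its log2 difference was 0.46 (limma adjusted p = 0.0295). KRT8 and CDH1 passed for GSK126 against ARID1A, at −0.60 and −0.47 (limma adjusted p = 0.0104 and 0.0244). Over all genes 2.84% and 2.5% passed in these comparisons. VWF passed in both, but it was kept by the filter through the ARID1A arrays alone. The part of these marker shifts in the results below was not tested.

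With ARID1A restored, the biosynthetic enzymes and transporters of the list lay lower in their medians, while ATF4 itself was near its DMSO level. The median log2 differences from DMSO were −0.30 for 6 other amino acid, glutathione and gluconeogenic enzymes, −0.19 for 5 serine and folate enzymes and −0.14 for 5 transporters. They were −0.04 for 5 genes of transfer RNA charging and export, −0.04 for 2 secreted and receptor targets and −0.02 for 9 regulators. The 32 members had a median log2 difference from DMSO of −0.11, beside −0.0027 over all genes tested, and medians of −0.15, −0.07 and −0.14 within batches 1, 2 and 3. Negative differences were found for 21 of 32 members (65.6%, beside 50.6% of all genes), and 16 members (50%, beside 24% of all genes) were negative in each of the 3 batches, while 3 (9.38%, beside 24.2%) were positive in each. In bulk RNA, fewer cells of a type and less RNA per cell cannot be told apart.

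None of the 32 members passed an adjusted p of 0.05 (limma, Benjamini-Hochberg over all 12698 genes), where 2.84% of all genes did. At an unadjusted p below 0.05 there were 10 members (31.2%, beside 19.2% of all genes), 9 lower and 1 higher. The labelled batches pair the arrays, and with batch as a block in the limma model 2 of 32 members (6.25%) passed, PCK2 and MTHFD2, both lower, where 6.1% of all genes passed in either direction and 2.28% passed as lower. The share of members called in either direction was thus near that of all genes. All 3 ARID1A arrays lay below all 3 DMSO arrays for 10 members (31.2%, beside 11.9% of all genes): ASNS, CBS, MTHFD2, PCK2, PSAT1, PYCR1, SHMT2, SLC7A1, SLC7A5 and XPOT. The opposite held for ALDH18A1 alone (3.12%, beside 13.3% of all genes). The 95% intervals of all 32 members lay within 1 log2 unit of 0, the farthest bound being 0.87 for DDIT3, so a difference as large as 1 log2 unit lay outside the interval of each member.

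With GSK126 the list was centred near its DMSO level. The median difference of the 32 members was −0.00055, beside −0.0029 over all genes, with 16 members lower and 16 higher. No gene of 12698 was called against DMSO, 0% in either limma model, and so no member was (lowest adjusted p 0.421 among members without the block), although 1185 genes (9.33%) and 1 member, TRIB3, had an unadjusted p below 0.05. All GSK126 arrays lay above all DMSO arrays for ATF4, NUPR1 and TRIB3 (9.38% of members, beside 7.51% of all genes) and below them for AARS1 and ALDH18A1 (6.25%, beside 7.7%). The farthest bound of a 95% interval was 0.69, for CTH.

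TRIB3 separated GSK126 from ARID1A restoration. It was the 1 member of 32 (3.12%) called between these groups, higher with GSK126, where 2.5% of all genes were called in either direction and 0.953% as higher. With the batch block it was again the 1 member called, beside 4.17% of genes in either direction and 1.81% as higher. The members' median was 0.13, beside −0.0073 over all genes, with 24 of 32 higher in GSK126 and batch medians of 0.17, 0.03 and 0.11. All GSK126 arrays lay above all ARID1A arrays for 7 members (21.9%, beside 9.67% of all genes), namely ATF4, CBS, NUPR1, PSAT1, SLC7A5, TRIB3 and XPOT, and below them for ALDH18A1 and PHGDH (6.25%, beside 11.4%). This comparison shares its ARID1A arrays with the comparison of ARID1A and DMSO, so the opposite signs of the medians are not separate evidence. Of the 3 group means, the lowest was that of ARID1A for 19 of 32 members (59.4%, beside 35.8% of all genes), that of DMSO for 8 and that of GSK126 for 5.

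**Figure D1:**
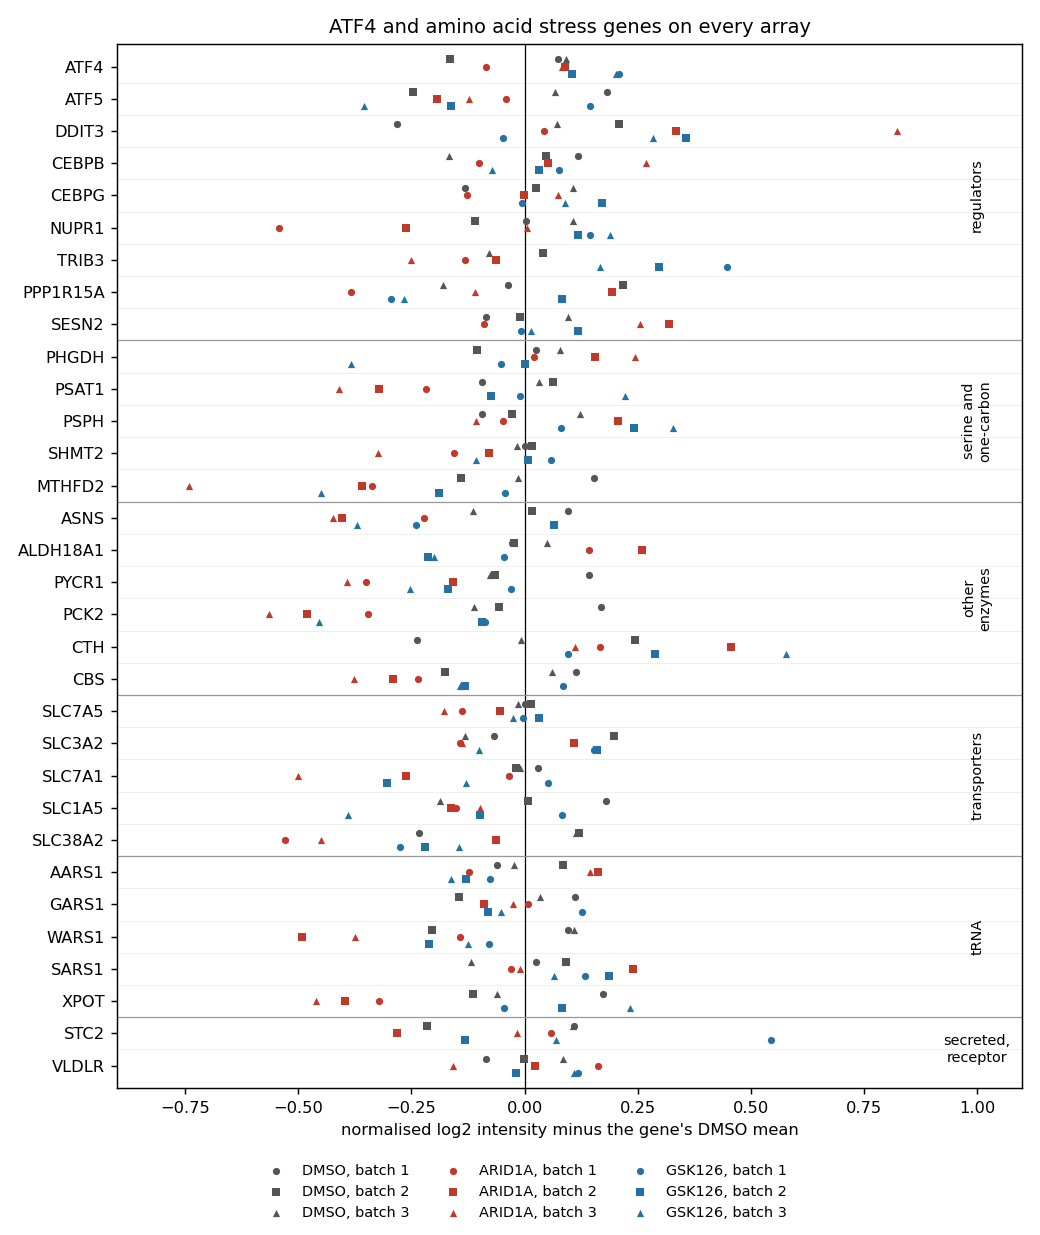
Normalised log2 intensity of the 32 detected members on each of the 9 arrays, minus the gene's mean over the 3 DMSO arrays (x axis); genes are ordered by role, colours give the group and marker shapes the batch. The ARID1A arrays of PCK2, MTHFD2, XPOT and PSAT1 lie to the left of the DMSO arrays, and the GSK126 arrays of TRIB3 lie to the right of all others.

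**Figure D2:**
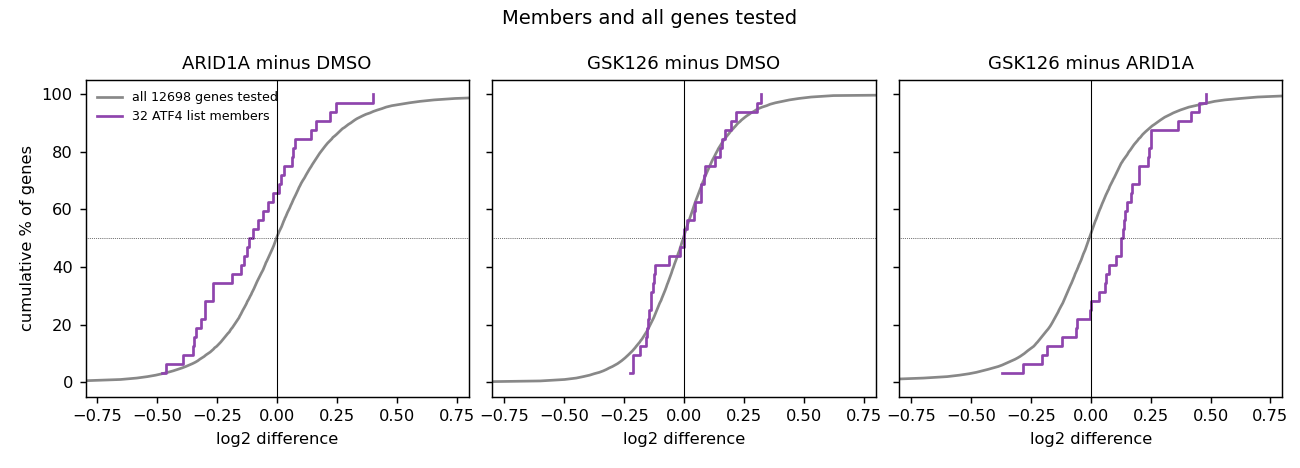
Cumulative percent of genes (y axis) at or below a log2 difference (x axis) for the 32 members (purple steps) and all 12698 genes tested (grey line) in each comparison. The members' median lies at −0.11 for ARID1A minus DMSO, near 0 for GSK126 minus DMSO and at 0.13 for GSK126 minus ARID1A.

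In what follows, values on arrays are normalised log2 intensities of the gene's probe, given in the order of batches 1, 2 and 3, and differences are on the log2 scale with their SE. Among the 9 regulators, ATF4, the transcription factor at the head of the response, overlapped between ARID1A and DMSO. ATF4 read 15.20, 14.96 and 15.22 on the DMSO arrays, 15.04, 15.21 and 15.21 on the ARID1A arrays and 15.33, 15.23 and 15.33 on the GSK126 arrays. The DMSO and ARID1A arrays interleave, and the 3 GSK126 arrays are the highest of the 9, though by little. ATF4 differed from DMSO by 0.03 ± 0.10 (log2, ± SE) with ARID1A (95% interval −0.19 to 0.25, limma adjusted p = 0.907) and by 0.17 ± 0.10 with GSK126 (95% interval −0.05 to 0.39, limma adjusted p = 0.632). Of its other detected probes, ILMN_1783394, dim and detected on 5 of 9 arrays, gave −0.02 for ARID1A against DMSO. ILMN_2358457, detected on 9 of 9, gave −0.07, so the sign of the small ARID1A difference depends on the probe.

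TRIB3 is a pseudokinase that ATF4 and DDIT3 induce and that restrains ATF4 in return. TRIB3 read 9.94, 9.94 and 9.82 on the DMSO arrays, 9.77, 9.84 and 9.65 on the ARID1A arrays and 10.35, 10.20 and 10.07 on the GSK126 arrays. Every GSK126 array was above every other array, and the lowest 2 arrays were ARID1A arrays of batches 1 and 3. TRIB3 was 1.37-fold higher with GSK126 than with ARID1A, a log2 difference of 0.45 ± 0.10 (limma adjusted p = 0.0481, 0.0251 with the batch block), with 0.58, 0.36 and 0.42 in batches 1, 2 and 3. The adjusted p lies just inside the threshold and the call held in 5 of 17 alternatives without the block (limma adjusted p 0.0275 to 0.321) and in 0 of the 9 among them that left out an array or a batch, while the difference ran from 0.36 to 0.52. Against DMSO the difference was 0.30 ± 0.10 for GSK126 (limma adjusted p = 0.421) and −0.15 ± 0.10 for ARID1A (limma adjusted p = 0.449), and neither passed.

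DDIT3, or CHOP, a C/EBP family member that promotes death in prolonged stress, had the widest spread. DDIT3 read 9.63, 10.12 and 9.98 on the DMSO arrays, 9.95, 10.25 and 10.73 on the ARID1A arrays and 9.86, 10.27 and 10.20 on the GSK126 arrays. The ARID1A array of batch 3 was the highest and the DMSO array of batch 1 the lowest, and the 3 groups overlap. DDIT3 differed from DMSO by 0.40 ± 0.21 with ARID1A (limma adjusted p = 0.334), with 0.32, 0.12 and 0.75 in the 3 batches, and by 0.20 ± 0.21 with GSK126 (limma adjusted p = 0.801). Without the ARID1A array of batch 3 the GSK126 and ARID1A groups differed by 0.0089, in place of −0.20.

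NUPR1, a small stress-induced chromatin protein, was lowest on an ARID1A array. NUPR1 read 13.21, 13.10 and 13.32 on the DMSO arrays, 12.67, 12.95 and 13.22 on the ARID1A arrays and 13.36, 13.33 and 13.40 on the GSK126 arrays. The GSK126 arrays were the 3 highest, while the ARID1A array of batch 3 lay within the DMSO range. The difference between GSK126 and ARID1A was 0.42 ± 0.13 (limma adjusted p = 0.151, 0.0882 with the batch block), and a second NUPR1 probe gave 0.53. ATF5 (−0.12 for ARID1A and −0.12 for GSK126, each against DMSO), a relative of ATF4 under similar translational control, CEBPB (0.07 and 0.01) and CEBPG (−0.02 and 0.08), which partner ATF4 on DNA, PPP1R15A (−0.10 and −0.16), which brings the phosphatase back to eIF2, and SESN2 (0.16 and 0.04), a leucine sensor of the mTORC1 pathway, passed no test. The 9 regulators together had a median of −0.02 for ARID1A and 0.08 for GSK126 against DMSO.

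**Figure D3:**
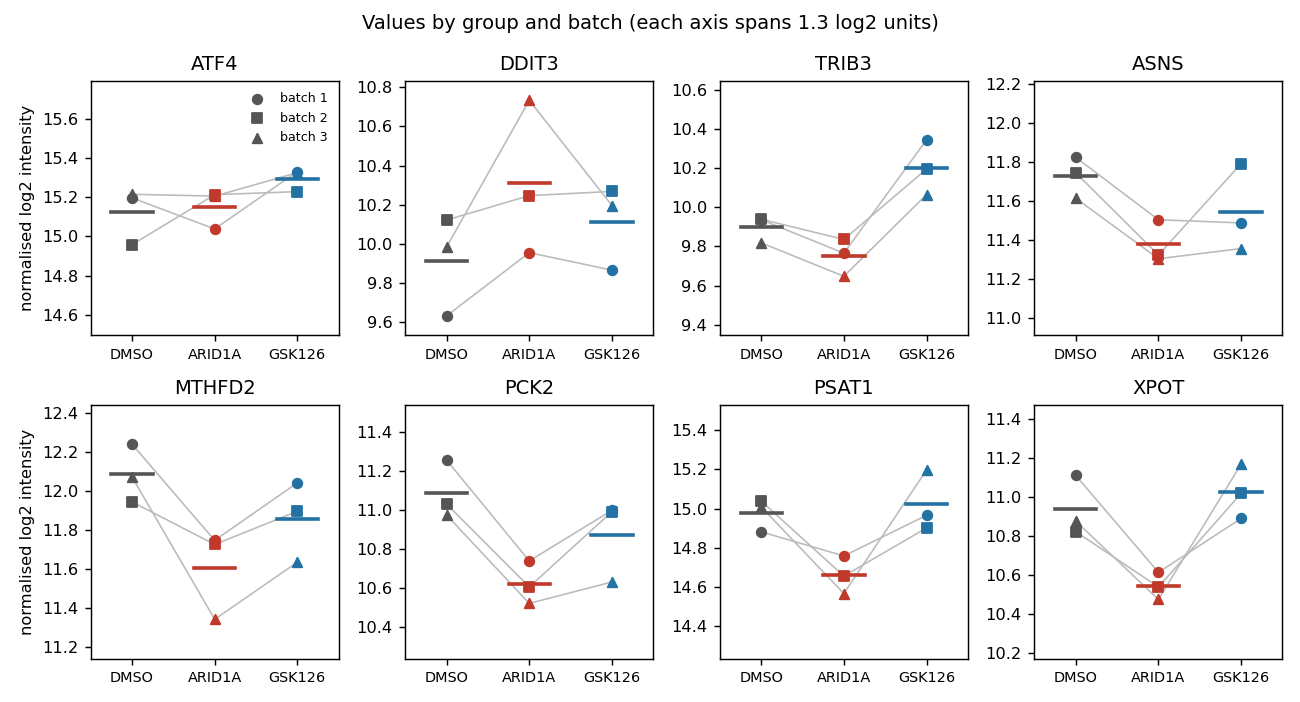
Normalised log2 intensity (y axis) of 8 members by group; marker shapes give the batch, thin lines join arrays of the same batch and thick bars are means of 3 arrays. PCK2 and MTHFD2 are lower in ARID1A than in DMSO in each batch, TRIB3 is higher in GSK126 than in both other groups in each batch, and ATF4 overlaps between DMSO and ARID1A.

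The serine, glycine and folate enzymes had a median of −0.19 for ARID1A against DMSO over 5 detected members, and 0.20 for GSK126 against ARID1A. MTHFD2, a mitochondrial methylenetetrahydrofolate dehydrogenase that acts on folate-bound carbon units, had the most negative difference of the 32 members. MTHFD2 read 12.24, 11.94 and 12.07 on the DMSO arrays, 11.75, 11.73 and 11.34 on the ARID1A arrays and 12.04, 11.90 and 11.64 on the GSK126 arrays. All ARID1A arrays were below all DMSO arrays, and the GSK126 arrays overlapped both groups. MTHFD2 was 1.39-fold lower with ARID1A, a log2 difference of −0.48 ± 0.15 with −0.49, −0.22 and −0.73 in the 3 batches. It passed with the batch block (limma adjusted p = 0.046) and not without it (limma adjusted p = 0.12), and leaving out any 1 of the 6 arrays from the fit with the block ended the call. With GSK126 the difference from DMSO was −0.23 ± 0.15 (limma adjusted p = 0.675).

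PSAT1, the aminotransferase of the middle step of serine synthesis, separated the ARID1A arrays from the rest. PSAT1 read 14.88, 15.04 and 15.01 on the DMSO arrays, 14.76, 14.65 and 14.57 on the ARID1A arrays and 14.97, 14.90 and 15.20 on the GSK126 arrays. The 3 ARID1A arrays were the lowest of the 9 and the other 6 interleave. The difference was −0.32 ± 0.10 for ARID1A against DMSO (limma adjusted p = 0.14) and 0.36 ± 0.10 for GSK126 against ARID1A (limma adjusted p = 0.113), and neither passed in either model. PSPH, which releases free serine in the last step, did not share that order. PSPH read 13.33, 13.40 and 13.55 on the DMSO arrays, 13.38, 13.63 and 13.32 on the ARID1A arrays and 13.51, 13.67 and 13.75 on the GSK126 arrays. Its arrays overlap in all 3 groups, with the highest value on a GSK126 array, and it differed from DMSO by 0.02 ± 0.11 with ARID1A and 0.22 ± 0.11 with GSK126 (limma adjusted p = 0.955 and 0.601).

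PHGDH, the first enzyme of serine synthesis, lay 0.14 from DMSO with ARID1A and −0.15 with GSK126, opposite in sign to PSAT1 in both comparisons and below the ARID1A arrays on every GSK126 array (difference −0.29 ± 0.12, limma adjusted p = 0.272). SHMT2, which splits serine into glycine and a folate-bound carbon in mitochondria, was lower on every ARID1A array than on any DMSO array, by −0.19 ± 0.09 (limma adjusted p = 0.301), with −0.01 for GSK126. ALDH1L2, a mitochondrial formyltetrahydrofolate dehydrogenase, was detected on 0 of 9 arrays.

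The other amino acid, glutathione and gluconeogenic enzymes held the most members with an unadjusted p below 0.05 for ARID1A against DMSO, 5 of 6, of which 4 were lower and 1 higher, and their median was −0.30. PCK2, the mitochondrial phosphoenolpyruvate carboxykinase, had the smallest adjusted p of the 32 members for ARID1A against DMSO. PCK2 read 11.26, 11.03 and 10.97 on the DMSO arrays, 10.74, 10.61 and 10.52 on the ARID1A arrays and 10.998, 10.99 and 10.63 on the GSK126 arrays. All ARID1A arrays were below all DMSO arrays, the GSK126 arrays of batches 1 and 2 lay within the DMSO range, and that of batch 3 lay within the ARID1A range. PCK2 was 1.38-fold lower with ARID1A, a log2 difference of −0.46 ± 0.13, alike in the 3 batches (−0.52, −0.42 and −0.45). It passed with the batch block (limma adjusted p = 0.0272) and not without it (limma adjusted p = 0.0902), and leaving out any 1 of the 6 arrays from the fit with the block ended this call too. The other detected PCK2 probes gave −0.49 ± 0.23 and −0.32 ± 0.20. The latter probe was dim and was detected on 6 of 9 arrays, with 1 of 3 ARID1A arrays among them. Against DMSO, GSK126 gave −0.21 ± 0.13 (limma adjusted p = 0.638).

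ASNS, asparagine synthetase and a long-used readout of ATF4, carries the response element shown above. ASNS read 11.82, 11.74 and 11.61 on the DMSO arrays, 11.50, 11.32 and 11.30 on the ARID1A arrays and 11.49, 11.79 and 11.36 on the GSK126 arrays. The ARID1A arrays were below every DMSO array, while the GSK126 arrays of batches 1 and 3 lay near the ARID1A arrays and that of batch 2 among the DMSO arrays. The ASNS difference from DMSO was −0.35 ± 0.12 for ARID1A (limma adjusted p = 0.168, 0.104 with the batch block) and −0.18 ± 0.12 for GSK126 (limma adjusted p = 0.694), and a second ASNS probe gave −0.38 and −0.24.

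ALDH18A1 makes the glutamate semialdehyde precursor of proline, and it was the 1 member for which all ARID1A arrays exceeded all DMSO arrays. ALDH18A1 read 12.32, 12.33 and 12.40 on the DMSO arrays, 12.49, 12.61 and 12.61 on the ARID1A arrays and 12.30, 12.14 and 12.15 on the GSK126 arrays. The GSK126 arrays were the 3 lowest, so the groups fell in the order GSK126, DMSO, ARID1A without overlap. ALDH18A1 differed by 0.22 ± 0.08 between ARID1A and DMSO (limma adjusted p = 0.197) and by −0.37 ± 0.08 between GSK126 and ARID1A (limma adjusted p = 0.0554, 0.0574 with the batch block), and neither passed. PYCR1 is the mitochondrial enzyme of the last step to proline. PYCR1 read 11.81, 11.60 and 11.59 on the DMSO arrays, 11.32, 11.51 and 11.28 on the ARID1A arrays and 11.64, 11.50 and 11.41 on the GSK126 arrays. The DMSO arrays were above all ARID1A arrays, with the GSK126 arrays overlapping both, and the difference between ARID1A and DMSO was −0.30 ± 0.11 (limma adjusted p = 0.166).

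The transsulfuration enzymes, which turn homocysteine into cysteine, had differences of opposite sign for ARID1A against DMSO, and neither passed. CBS, the first of them, was lower on every ARID1A array than on any DMSO or GSK126 array, by −0.30 ± 0.11 against DMSO (limma adjusted p = 0.168). CTH, the second, had a positive difference in both comparisons with DMSO. CTH read 11.89, 12.38 and 12.12 on the DMSO arrays, 12.30, 12.59 and 12.24 on the ARID1A arrays and 12.23, 12.42 and 12.71 on the GSK126 arrays. The groups overlap, and the lowest arrays of CTH were DMSO arrays and the highest was the GSK126 array of batch 3. CTH differed from DMSO by 0.24 ± 0.16 with ARID1A and 0.32 ± 0.16 with GSK126 (limma adjusted p = 0.453 and 0.594), and its other probes had the same signs. CHAC1, which degrades glutathione, was detected on 2 of 9 arrays, 1 of ARID1A and 1 of GSK126, and was not tested. CHAC1 read 6.14, 6.13 and 6.48 on the DMSO arrays, 6.41, 6.29 and 6.84 on the ARID1A arrays and 6.76, 6.57 and 6.96 on the GSK126 arrays, and no fold is given at this level.

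All 5 detected amino acid transporters had a negative difference between ARID1A and DMSO, with a median of −0.14, and 0 of the 5 passed in either model. SLC38A2, a sodium-coupled importer of small neutral amino acids, differed by −0.35 ± 0.14 (limma adjusted p = 0.228). SLC7A1, the importer of arginine and lysine, differed by −0.27 ± 0.13 and did not overlap between the groups (limma adjusted p = 0.313). SLC1A5, the glutamine importer, differed by −0.14 ± 0.13 (limma adjusted p = 0.62). For GSK126 against DMSO these 3 had differences of −0.21, −0.13 and −0.14.

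SLC7A5 and SLC3A2 form the light and heavy chain of the LAT1 exchanger, which takes up leucine and other large neutral amino acids. SLC7A5 read 16.04, 16.05 and 16.02 on the DMSO arrays, 15.90, 15.98 and 15.86 on the ARID1A arrays and 16.03, 16.07 and 16.01 on the GSK126 arrays. Every ARID1A array was below every array of the other groups, by a small margin, and the difference from DMSO was −0.12 ± 0.07 (limma adjusted p = 0.406). The raw SLC7A5 signal was 52902 to 69580, where the brightest probe of an array read 71800 to 73527, near the top of the scale. SLC3A2 differed from DMSO by −0.06 ± 0.12 with ARID1A and 0.07 ± 0.12 with GSK126, whereas its second detected probe gave −0.32 for ARID1A against DMSO and 0.57 for GSK126 against ARID1A, none of these called. SLC7A11, the cystine importer, was detected on 1 of 9 arrays (a GSK126 array), and SLC1A4, an exchanger of alanine, serine and cysteine, on 2 (1 of DMSO and 1 of ARID1A), and neither was tested.

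XPOT is the nuclear exporter of transfer RNA. XPOT stood at 11.11, 10.82 and 10.88 on the DMSO arrays, 10.61, 10.54 and 10.48 on the ARID1A arrays and 10.89, 11.02 and 11.17 on the GSK126 arrays. The 3 ARID1A arrays were the lowest of the 9 and the DMSO and GSK126 arrays interleave. XPOT differed by −0.39 ± 0.11 between ARID1A and DMSO (limma adjusted p = 0.0905, 0.087 with the batch block) and by 0.48 ± 0.11 between GSK126 and ARID1A (limma adjusted p = 0.0549, 0.0606 with the batch block), each short of the threshold. WARS1, the tryptophan synthetase, which interferon also induces, differed from DMSO by −0.34 ± 0.12 with ARID1A (limma adjusted p = 0.172), and its second probe gave −0.41. AARS1, GARS1 and SARS1, which charge alanine, glycine and serine, differed by 0.06, −0.04 and 0.07 with ARID1A and by −0.12, −0.0018 and 0.13 with GSK126, each against DMSO.

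STC2, a secreted stanniocalcin, and VLDLR, a lipoprotein receptor, are stress targets outside amino acid metabolism. STC2 differed from DMSO by −0.08 ± 0.18 with ARID1A and 0.16 ± 0.18 with GSK126, the latter carried by the GSK126 array of batch 1 (10.14, beside 9.46 and 9.66). VLDLR differed by 0.01 ± 0.10 and 0.07 ± 0.10. Neither passed in any comparison.

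**Figure D4:**
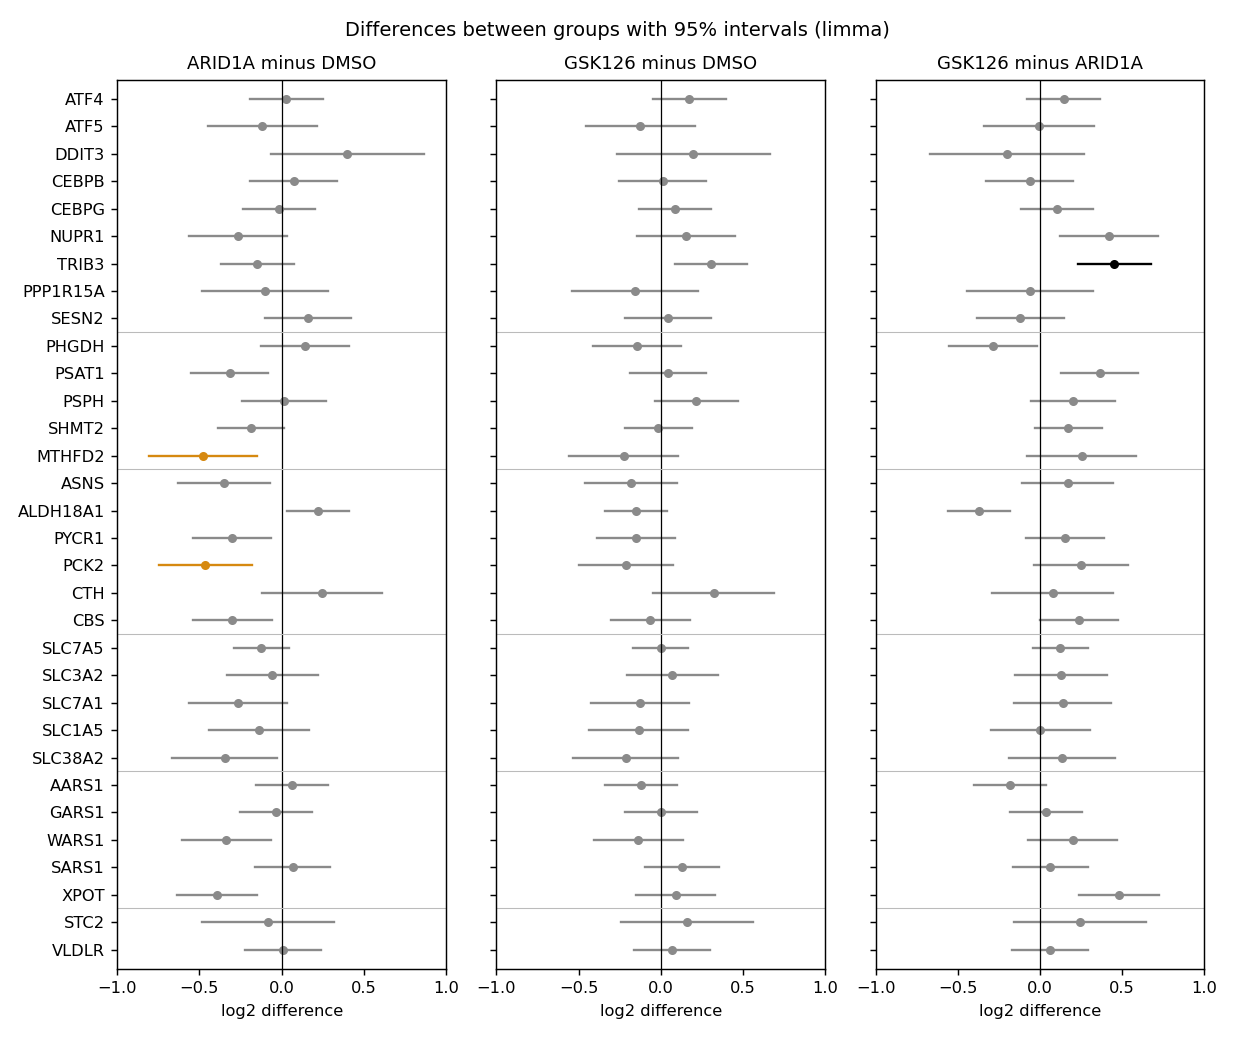
Log2 differences (x axis) of the 32 members with 95% intervals from the limma model without a block, by comparison. Black marks the 1 member called at an adjusted p below 0.05 (TRIB3 for GSK126 minus ARID1A), orange the 2 called only with batch as a block (MTHFD2 and PCK2 for ARID1A minus DMSO), and grey the rest.

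Values of 12 other detected probes of 9 members were compared with the probe used. The sign was the same for 9 of 12 in ARID1A against DMSO, 9 of 12 in GSK126 against DMSO and 11 of 12 in GSK126 against ARID1A, and 0 of the 12 were called. Members with and without the response element letters had, for ARID1A against DMSO, medians of −0.06 over 7 detected members with them and −0.10 over 21 without, and these medians were not tested.

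Genes of the pathway outside the list were examined in the same fit. Of the 16 eIF2 pathway genes (the eIF2 kinases, eIF2 and eIF2B subunits and phosphatase partners) 0 were called in any comparison or model, and their medians were 0.04, 0.0073 and −0.02 for ARID1A against DMSO, GSK126 against DMSO and GSK126 against ARID1A. EIF2S1, the subunit that is phosphorylated, differed from DMSO by −0.30 ± 0.10 with ARID1A (limma adjusted p = 0.144) and −0.31 ± 0.10 with GSK126 (limma adjusted p = 0.421). EIF2AK2, the kinase activated by double-stranded RNA, differed by −0.33 ± 0.12 with ARID1A, and EIF2AK4, the kinase that senses uncharged transfer RNA, by −0.27 ± 0.09 with GSK126. EIF2S2, another eIF2 subunit, and OMA1, a mitochondrial protease upstream of the response, were the leading genes between GSK126 and ARID1A (0.28 ± 0.07 and 0.29 ± 0.09, limma adjusted p = 0.0895 and 0.155).

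Of 20 other known ATF4 targets tested, 2 rose with ARID1A against DMSO and 0 fell, where 2.84% of all genes were called in either direction. With the batch block 4 rose and 0 fell, where 6.1% of all genes were called. Over all genes tested, calls also leaned upward, with 255 higher and 106 lower, and 485 higher and 289 lower with the block, so nothing particular to these targets is read from the direction. BCAT1, the cytosolic branched-chain aminotransferase, averaged 6.93 ± 0.29 (SD, n = 3) on the DMSO arrays, where it was detected on 2 of 3, and 8.55 ± 0.48 on the ARID1A arrays, a difference of 1.62 ± 0.27 (limma adjusted p = 0.0188). GOT1, the cytosolic aspartate aminotransferase, rose by 0.42 ± 0.09 (limma adjusted p = 0.0468). VEGFA, the angiogenic growth factor, and CCPG1, a receptor of endoplasmic reticulum autophagy, rose by 0.65 ± 0.16 and 0.46 ± 0.15 (SE of the fit without the block). Both were called only with the block (limma adjusted p = 0.0212 and 0.0372, and 0.0677 and 0.142 without it).

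Between GSK126 and ARID1A, 2 of these 20 targets were lower with GSK126 and 0 higher. Over all genes 317 (2.5%) were called, 196 lower and 121 higher, and 4.17% were called with the block. VEGFA differed by −0.80 ± 0.16 (limma adjusted p = 0.0363) and JDP2, a bZIP repressor, by −0.89 ± 0.19 (limma adjusted p = 0.048). BCAT1, at −1.08 ± 0.27 in the fit without the block (limma adjusted p = 0.0762), was called as well with the block (limma adjusted p = 0.0298). Against DMSO, GSK126 gave 0 calls, the leading genes being JDP2 (−0.46 ± 0.19) and BCAT1 (0.54 ± 0.27). The median of the 20 was −0.09 for ARID1A against DMSO, so the called genes and the median differ in sign. The letters TGATGNAA lie in a promoter window of 12 of the 20 targets of this list that the RefSeq table holds (60%), a set that need not be the 20 tested.

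Of 7 cytosolic synthetases not counted as ATF4 targets and 16 mitochondrial synthetases, 0 were called in any comparison or model. KARS1 (lysine) and VARS1 (valine) led the cytosolic ones for ARID1A against DMSO at −0.17 ± 0.08 and −0.13 ± 0.08, VARS1 and RARS1 (arginine) for GSK126 against DMSO at −0.12 ± 0.08 and 0.13 ± 0.09, and KARS1 and FARSA (phenylalanine) for GSK126 against ARID1A at 0.17 ± 0.08 and 0.08 ± 0.09. The mitochondrial RARS2 and LARS2 differed by 0.30 ± 0.09 and −0.28 ± 0.09 with ARID1A against DMSO, RARS2 and WARS2 by 0.23 ± 0.09 and 0.19 ± 0.10 with GSK126 against DMSO, and NARS2 and LARS2 by 0.22 ± 0.10 and 0.19 ± 0.09 between GSK126 and ARID1A. Of 9 folate and glycine enzymes outside the list 0 were called in any comparison or model. Their median was −0.10 for ARID1A against DMSO and −0.13 for GSK126 against DMSO, with 7 of 9 negative in each. It was 0.03 for GSK126 against ARID1A. AMT of the glycine cleavage system and SHMT1, the cytosolic counterpart of SHMT2, differed by −0.37 ± 0.14 and 0.25 ± 0.10 with ARID1A against DMSO and by 0.38 ± 0.14 and −0.39 ± 0.10 between GSK126 and ARID1A, and MTR, methionine synthase, and TYMS, thymidylate synthase, by −0.31 ± 0.10 and −0.33 ± 0.19 with GSK126 against DMSO.

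Single genes of arginine and glutathione metabolism were called. Over all genes tested, 2.84% were called for ARID1A against DMSO and 2.5% for GSK126 against ARID1A (6.1% and 4.17% with the block). Of 10 urea cycle, arginine, proline and glutamine genes, ASS1, argininosuccinate synthase, rose with ARID1A by 1.11 ± 0.14 (limma adjusted p = 0.0061) and was the only call there. ASS1 was lower with GSK126 than with ARID1A by −1.09 ± 0.14 (limma adjusted p = 0.00713), and PRODH, the first enzyme of proline breakdown, was higher by 0.52 ± 0.11 (limma adjusted p = 0.0453, 0.0568 with the batch block, which ends the call). Of 7 glutathione genes, MGST1, a membrane glutathione transferase, fell with ARID1A by 0.64 ± 0.12 (limma adjusted p = 0.0295) and was higher with GSK126 than with ARID1A by 0.82 ± 0.12 (limma adjusted p = 0.0116). In GSK126 against DMSO the leading genes were ODC1 and AZIN1 of polyamine metabolism (−0.26 ± 0.09 and −0.24 ± 0.10) and GSS and GSR of glutathione synthesis and recycling (0.22 ± 0.10 and 0.13 ± 0.07), none called.

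Of 16 amino acid transporters outside the list and 22 genes of amino acid sensing by mTORC1, 0 were called without the block. With the block, 1 gene of each list was called for ARID1A against DMSO, where 6.1% of all genes were. SLC1A1, a glutamate and cysteine importer, rose by 0.46 ± 0.25 (limma adjusted p = 0.025 with the block, 0.346 without it). CASTOR2, a relative of the arginine sensor CASTOR1, rose by 0.77 ± 0.21 (limma adjusted p = 0.0308 with the block, 0.0869 without it). Both SEs are those of the fit without the block. The medians of these transporters and sensing genes for ARID1A against DMSO were 0.15 and 0.13, opposite in sign to the −0.14 of the 5 listed transporters. In the same comparison the medians of other lists had either sign. They were −0.10 for the folate and glycine enzymes, −0.06 for the glutathione genes and 0.10 for the urea cycle, arginine, proline and glutamine genes. With GSK126 the transporters SLC7A8 and SLC6A14 averaged 7.36 and 8.01, beside 6.74 and 6.99 on the DMSO arrays, where they were detected on 1 and 2 of 3 arrays (limma adjusted p = 0.251 and 0.386). SLC16A10, an aromatic amino acid transporter, differed by −0.49 ± 0.13 between GSK126 and ARID1A, and SLC6A14 by 0.88 ± 0.29. DEPDC5 of the GATOR1 complex and the Rag GTPase gene RRAGC differed by 0.43 ± 0.12 and 0.24 ± 0.08 with GSK126 against DMSO, and the mTOR inhibitor DEPTOR and CASTOR2 by 0.35 ± 0.13 and −0.54 ± 0.21 between GSK126 and ARID1A.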

How the data were processed

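RNA of 9 samples of OVISE cells (3 DMSO, 3 ARID1A, 3 GSK126) was hybridised to an Illumina array of 47323 probes. The authors deposited a non-normalised table with, per probe and array, an intensity on a linear scale and a detection p-value, exported with GenomeStudio per the submitters' processing notes. The authors' value table, used as an alternative, holds intensity values in the rank order of the raw ones, with column medians of 329.794 or, on 1 array, 329.797; it is linear and not centred, and which arrays set its quantiles is unknown. Its processing and the genome build are not given in the sources used here.

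Raw intensities were background corrected, quantile normalised and put on log2 with limma 3.58.1 (neqc, offset 16, negative controls inferred from detection p-values) in R 4.3.3. Probes with a detection p below 0.05 on 3 or more arrays were kept (23014), and each of 12698 genes took its brightest kept probe. Of the probes, 30113 had 1 gene symbol, 8 several and 17202 no gene; 30074 symbols were matched to RefSeq (GRCh38.p14) by Entrez identifier. All 9 arrays entered 1 limma model with 3 group means (6 residual degrees of freedom), and tests were two-sided at 0.05 after Benjamini-Hochberg adjustment across all genes. The number of arrays limits the precision. Labelled batches pair the arrays, and a second model added batch as a block (leaving 4 degrees of freedom). Deviations from the group means correlated at 0.102 to 0.326 for the 9 same-batch pairs of different groups. For the 18 others they correlated at −0.227 to 0.042. Deviations are centred within each group, which ties these ranges together, so the lower range is not separate evidence of pairing. Printed SEs and intervals are those of the model without the block. Array values were given for ATF4, DDIT3, TRIB3, ASNS, members called in either model and the 5 with the smallest p in each comparison, and, chosen after their values were seen, for SLC7A5 and CHAC1; from other lists, called genes (up to 4) or else the 2 with the smallest p. The fit was tested on simulated data with independent arrays and no batch effect, so the pairing by batch was not part of that test. Members, lists and tests were chosen with earlier results of these data known.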

Additional observations from a re-analysis of the deposited data

How the results depend on the processing

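Only 3 arrays stood in each group, and no call of a member held when an array was left out, whichever array it was. The differences kept their sign over all settings. They ran from −0.52 to −0.38 for PCK2 and −0.61 to −0.35 for MTHFD2 (ARID1A against DMSO), and 0.36 to 0.52 for TRIB3 (GSK126 against ARID1A). Genes called for ARID1A against DMSO numbered 361, and 774 with the replicate block, 629 without background subtraction, 643 in the authors' value table, 232 with only the 2 groups compared, and, chosen after seeing the data, 1451 with the block in the value table and 793 with the block and the mean of all kept probes. For GSK126 against ARID1A they numbered 317, and 530, 511, 512, 168, 1085 and 569 under the same settings. For GSK126 against DMSO they were 0, and 65 with the block in the value table. Leaving out 1 array or 1 batch without the block gave 25 to 218 genes for ARID1A against DMSO and 29 to 170 for GSK126 against ARID1A; leaving out 1 array from the fit with the block, added after seeing the data, gave 104 to 413 and 156 to 305.

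Members called for ARID1A against DMSO went from 0 to 2 with the block alone or with the mean of all kept probes, to 1 (PCK2) without background subtraction or in the value table, and to 10 with the block in the value table (9 lower, and DDIT3 higher); leaving out an array or a batch gave 0. For GSK126 against ARID1A they went from 1 to 3 without background subtraction, 4 in the value table, 2 with median scaling, 3 with probes detected on all 9 arrays, 5 with the block in the value table, and 0 with no detection filter, with adjustment over all kept probes, with only the 2 groups compared or with any array or batch left out. In the main normalisation and probe choice, the block changed no call of a member other than those of PCK2 and MTHFD2 for ARID1A against DMSO. Adjusted p of PCK2 ran from 0.0399 to 0.288 without the block and 0.00439 to 0.131 with it, and that of MTHFD2 from 0.0519 to 0.38 and 0.00593 to 0.166. TRIB3 with the block ran from 0.00659 to 0.0967. The members' median for ARID1A against DMSO ran from −0.13 to −0.081 with an array or batch left out and no block, and from −0.13 to −0.038 with an array left out and the block (−0.038 without ARID1A replicate 1, which gave −0.12 without the block). That for GSK126 against DMSO was 0.059 with median scaling, which moved the median of all genes to 0.05.

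Small differences changed sign. For ARID1A against DMSO, ATF4 was −0.023 and PSPH −0.033 with the mean of all kept probes, and with an array or batch left out, over fits with and without the block, they ran from −0.084 to 0.12 and −0.092 to 0.14. Over the same fits, for GSK126 against DMSO, XPOT ran from −0.014 to 0.24 and PSAT1 from −0.058 to 0.14; for GSK126 against ARID1A, DDIT3 ran from −0.38 to 0.0089 and CTH from −0.12 to 0.21. The causes were not tested.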
